A study of Homo sapiens with 6 samples.

Results

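The genes described here are 10 chains of haematopoietic cytokine receptors in TF-1, a human erythroleukaemia line with CD34 on its surface that depends on a cytokine for growth. They were CSF2RA, IL3RA, IL5RA, CSF2RB, EPOR, KIT, FLT3, IL6ST, IL6R and IL4R, a list set by symbol. All 10 were measured, among 18377 genes in all, through the probe sets annotated to each symbol, and the brightest probe set over all 6 arrays stood for a gene. The 3 control arrays (1 to 3) held RNA of TF-1 transfected with the vector, pEGFP, and the 3 PRL-3 arrays (4 to 6) held RNA of TF-1 transfected with the human PRL-3 gene, PTP4A3, which encodes a protein tyrosine phosphatase. Both groups were kept in RPMI with serum and human IL-3 at 5 ng/ml, so the ligand of the IL-3 receptor was present throughout. The labels give neither the number of clones nor whether a group held separate cultures, so the p-values reflect array-to-array spread alone, and that spread may be technical.

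Receptors for GM-CSF, IL-3 and IL-5 each pair a ligand-specific alpha chain (CSF2RA, IL3RA, IL5RA) with the common beta chain CSF2RB, which carries the docking sites for JAK2 and STAT5. The erythropoietin receptor EPOR works as a homodimer through the same kinase. KIT and FLT3, the receptors for stem cell factor and FLT3 ligand, are receptor tyrosine kinases. IL6R binds IL-6 and needs IL6ST, known as gp130, to signal, and gp130 also serves LIF, oncostatin M and IL-11 through other partners. IL4R is the alpha chain of the IL-4 and IL-13 receptors. TF-1 is widely used as an indicator line for GM-CSF, IL-3 and erythropoietin because it carries these receptors.

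PTP4A3 checked the labels. Its intensity gave log2 levels of 7.92 to 8.03 in control and 10.79 to 10.93 in PRL-3 arrays, a difference of 2.87 ± 0.072 (log2, SE, adjusted p = 2.24e-06, limma). Median intensity per array ran from 89.8 to 92.9. A single direction held 0.639 of the within-group variance, with control 1 and PRL-3 5 at one end and control 3 at the other. CSF2RA, IL3RA, IL5RA, CSF2RB, EPOR and IL6R, 6 of the 10 chains, were highest in control 1 among controls and in PRL-3 5 among PRL-3 arrays. Markers of TF-1 were present in brightness. None of the 11 measured progenitor markers, among them CD34, GATA1, GATA2 and MYB, lay below the 60.5 percentile of all genes. Of 11 lymphocyte markers 7 lay below the 25 percentile, with CD3D at 23.2 and MS4A1 at 6.57. A percentile compares the brightness of different probe sets, which depends on the probes, and does not order the genes by mRNA amount.

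Promoter sequences are shown for the 4 chains that rose and for IL3RA, since these moved the same way or belong to one receptor family. Each is 300 bases from RefSeq (assembly GRCh38.p14), 5′ to 3′ on the gene's strand, from 250 bases before to 50 bases after the annotated gene start. Capitals mark matches, on either strand, to GATAA, the core that GATA factors bind, and TTCNNNGAA, the core of STAT5 sites.
KIT, chr4:54657707-54658006, plus strand: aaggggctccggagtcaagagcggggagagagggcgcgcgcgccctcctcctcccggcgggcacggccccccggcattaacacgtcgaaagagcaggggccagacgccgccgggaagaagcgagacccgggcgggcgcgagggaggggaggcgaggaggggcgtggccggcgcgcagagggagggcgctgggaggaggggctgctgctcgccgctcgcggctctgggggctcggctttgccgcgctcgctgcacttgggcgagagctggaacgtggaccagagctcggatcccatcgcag
IL5RA, chr3:3110325-3110624, minus strand: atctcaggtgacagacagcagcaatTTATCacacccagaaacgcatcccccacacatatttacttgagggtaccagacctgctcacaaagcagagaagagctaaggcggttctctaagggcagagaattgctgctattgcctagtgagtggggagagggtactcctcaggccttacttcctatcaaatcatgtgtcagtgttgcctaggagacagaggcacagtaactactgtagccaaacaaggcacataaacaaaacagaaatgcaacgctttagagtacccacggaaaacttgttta
IL6ST, chr5:55994914-55995213, minus strand: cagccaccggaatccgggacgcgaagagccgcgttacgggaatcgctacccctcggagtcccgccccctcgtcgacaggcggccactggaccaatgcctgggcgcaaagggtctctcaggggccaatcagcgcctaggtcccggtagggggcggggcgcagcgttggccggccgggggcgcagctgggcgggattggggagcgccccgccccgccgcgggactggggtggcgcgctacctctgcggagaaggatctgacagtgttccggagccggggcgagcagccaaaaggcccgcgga
CSF2RA, chrX:1268564-1268863, plus strand: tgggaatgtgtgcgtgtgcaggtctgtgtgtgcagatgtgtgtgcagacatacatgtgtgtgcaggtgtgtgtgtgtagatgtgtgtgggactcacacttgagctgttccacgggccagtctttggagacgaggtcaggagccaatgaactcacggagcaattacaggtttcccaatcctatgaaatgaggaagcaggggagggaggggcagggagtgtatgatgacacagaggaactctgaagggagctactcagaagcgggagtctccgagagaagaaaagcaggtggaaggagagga
IL3RA, chrX:1336535-1336834, plus strand: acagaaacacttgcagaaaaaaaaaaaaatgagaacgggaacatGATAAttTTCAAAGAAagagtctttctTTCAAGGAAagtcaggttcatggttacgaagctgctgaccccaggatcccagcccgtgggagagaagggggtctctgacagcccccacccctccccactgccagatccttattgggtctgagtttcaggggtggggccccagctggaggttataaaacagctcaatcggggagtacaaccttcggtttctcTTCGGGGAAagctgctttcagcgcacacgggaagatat
CSF2RA and IL3RA lie in the pseudoautosomal region, and the Y entries held the same letters. The table matched 9 of the 10 chains; CSF2RB was not among them. Only IL3RA held TTCNNNGAA, 1 of these 9 against 7.66% of 35116 promoters of this length with at least 1 match. Its 3 matches begin 199 and 179 bases before and 12 bases after the start. The share of promoters with 3 matches was not counted. GATAA stood in 3 of the 9 (IL3RA, IL5RA and EPOR) against 22.7% of all promoters, and the 2 motifs did not overlap. GGGCGG, the core of SP1 sites, stood in EPOR, KIT, IL6ST and IL4R, 4 of 9 against 45% of all promoters, with 4 matches in IL6ST. The chains that rose therefore had no shared match: KIT and IL6ST had GGGCGG and 74.3% and 72.7% G and C, IL5RA had GATAA and 46.7% G and C, and CSF2RA had none of the 3 motifs. A match is a description of letters and not a site.

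With PRL-3, KIT, IL5RA and IL6ST rose clearly, CSF2RA rose slightly, and 0 of the 10 chains fell in limma (adjusted p 0.05 over all genes). These 4 of 10 compare with 4.58% of all genes called higher, and the 0 lower with 3.11% called lower. In the fit limited to genes above the median level, 6.46% were called higher and 4.96% lower. The chains were chosen with earlier results of these data known, so the comparison with these shares is descriptive only. At an unadjusted p under 0.05, 6 of the 10 differed, with IL3RA higher and CSF2RB lower as the other two, and so did 3704 of 18377 genes (20.2%). Groups did not overlap in 5 chains, 4 higher and IL4R lower, against 24.3% of all genes. The median difference over the chains was 0.14 on the log2 scale, against -0.015 over all genes. An exact two-sided permutation test of single chains cannot go below p = 0.1 with 3 arrays a group, and KIT, IL5RA, IL6ST, CSF2RA and IL4R were at that minimum.

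**Figure D1:**
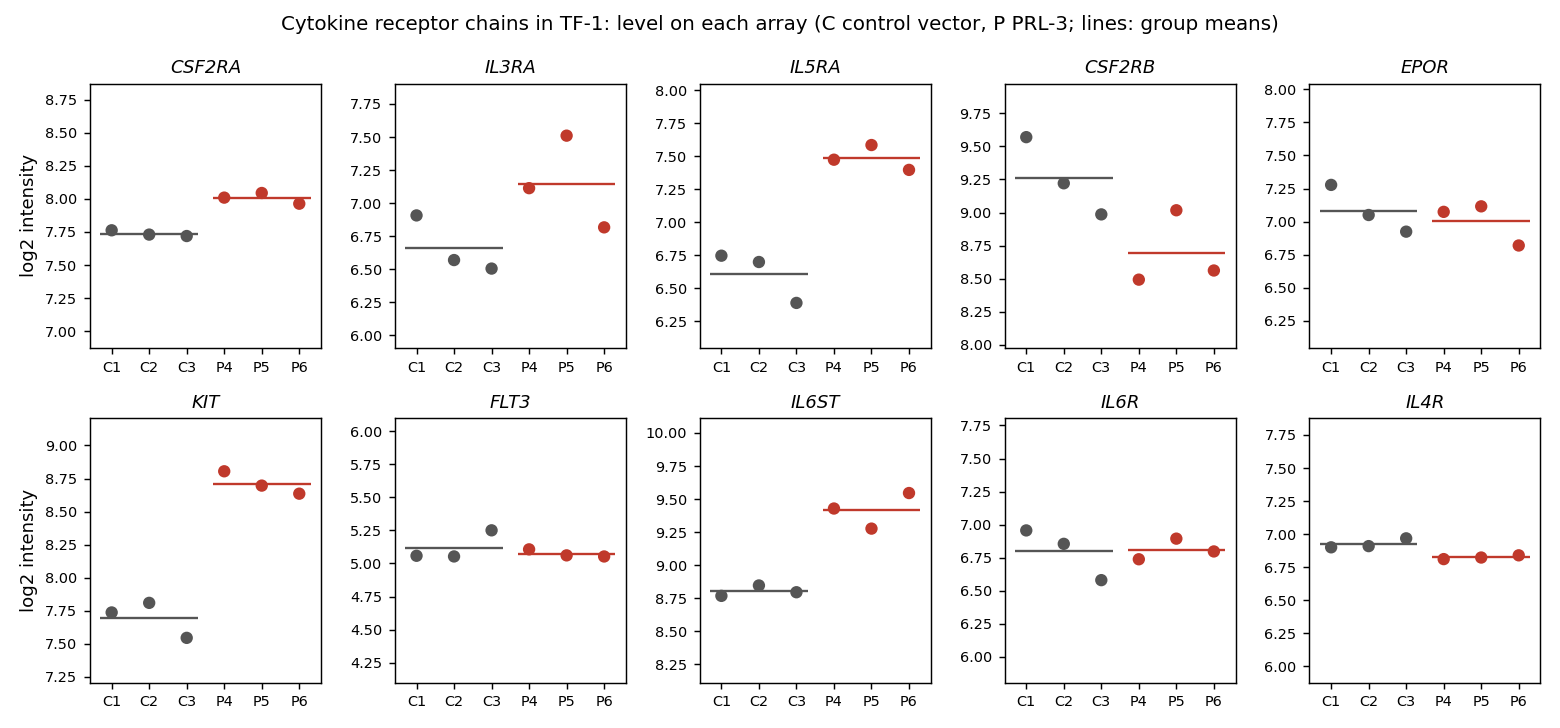
Log2 intensity of each receptor chain on each array (grey, control vector 1 to 3; red, PRL-3 4 to 6; lines, group means; every panel spans 2 log2 units). KIT, IL5RA, IL6ST and, by a smaller step, CSF2RA stand apart between the groups by more than their spread, while CSF2RB and IL3RA overlap.

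The stem cell factor receptor KIT had the largest difference of the 10. Its intensity was 213, 224 and 187 in control and 447, 415 and 398 in PRL-3 arrays. All 3 PRL-3 arrays lay above all controls, with a wide gap between 224 and 398. The difference was 1.01 ± 0.089 (log2, SE), a 2.02-fold rise with a 95% interval of 1.75 to 2.33 (adjusted p = 0.000721, limma), and KIT ranked 82 among all genes by the size of its difference. FLT3, the other receptor tyrosine kinase, read 33.3, 33.2 and 38.1 in control and 34.5, 33.4 and 33.2 in PRL-3 arrays. These values sat at the 7.59 percentile of all genes, in the range of the lymphocyte markers, and the groups overlapped. Its difference was -0.047 ± 0.077 (log2, SE, adjusted p = 0.818, limma), with an interval on the fold of 0.857 to 1.09; at so dim a probe set such an interval bounds the signal and may not bound the transcript.

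IL5RA, the IL-5 binding chain found on eosinophils and basophils, read 107, 104 and 83.9 in control and 178, 192 and 168 in PRL-3 arrays. The lowest PRL-3 array was above the highest control. The rise of 0.87 ± 0.106 (log2, SE) was 1.83-fold, with an interval of 1.55 to 2.17 (adjusted p = 0.00287, limma). In brightness IL5RA moved from the 44.2 to the 67.4 percentile.

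CSF2RA, the GM-CSF binding chain, had the tightest values among the chains that rose. It read 217, 212 and 211 in control and 258, 264 and 250 in PRL-3 arrays, and the groups did not overlap. The rise of 0.27 ± 0.063 (log2, SE) was 1.20-fold, with an interval of 1.09 to 1.33 and adjusted p = 0.0407 in limma. The call was narrow: with any single array left out (6 fits) limma gave adjusted p of 0.0695 to 0.149, while the difference stayed at 0.25 to 0.29. Its second probe set gave 0.27 and differed from the first by at most 0.0031 on any array; with the gene on both X and Y in the shared region, the pair may share probes and is not a separate measurement.

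IL3RA, the IL-3 binding chain, read 120, 95 and 90.9 in control and 138, 182 and 113 in PRL-3 arrays. PRL-3 6 lay below control 1, so the groups overlapped. The difference of 0.49 ± 0.176 (log2, SE) did not pass (adjusted p = 0.162, limma), and its interval on the fold ran from 1.06 to 1.86. Without PRL-3 5, the highest array, it was 0.30 (adjusted p = 0.278), and without PRL-3 6 it was 0.65 (adjusted p = 0.0895), both in limma. IL3RA too had a second probe set, within 0.0054 of the first on every array.

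CSF2RB, the common beta chain, was the only one of the 10 with a sizeable difference downward. It read 760, 597 and 507 in control and 360, 518 and 378 in PRL-3 arrays. PRL-3 5 lay above control 3 and the other PRL-3 arrays below all controls. The difference of -0.57 ± 0.176 (log2, SE), 1.48-fold lower with an interval of 1.12 to 1.96, did not pass (adjusted p = 0.104, limma). It did pass without control 3 (-0.71, adjusted p = 0.0468) or without PRL-3 5 (-0.73, adjusted p = 0.035), and without control 1 it shrank to -0.41 (adjusted p = 0.233, limma). The direction that held most of the within-group variance held 0.944 of that of CSF2RB, the largest share among the 10 chains. Without control 1 and PRL-3 5, a fit added after seeing the data, the difference was -0.58 and passed (adjusted p = 0.0199, limma).

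**Figure D2:**
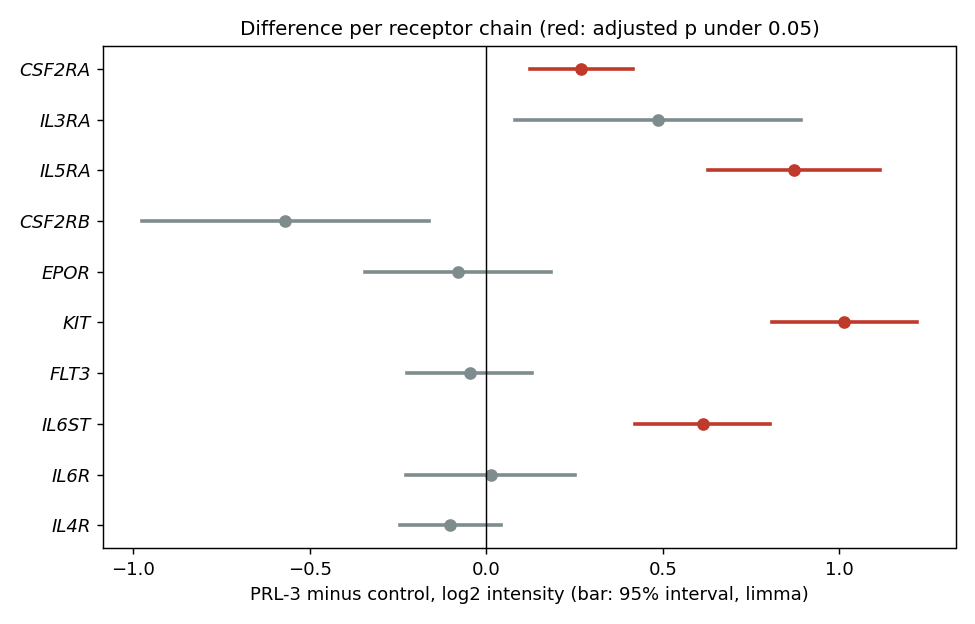
Difference per receptor chain (PRL-3 minus control, log2 intensity) as points, with 95% intervals from limma as bars; red marks adjusted p under 0.05. KIT (1.01), IL5RA (0.87), IL6ST (0.61) and CSF2RA (0.27) are red, and CSF2RB (-0.57) and IL3RA (0.49) have wide intervals that lie apart from 0 without passing the adjusted test.

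The alpha chains were then set against the common beta chain on the same array, which asks only whether the chains of a receptor changed unequally. IL5RA minus CSF2RB was -2.82, -2.52 and -2.60 in control and -1.02, -1.43 and -1.17 in PRL-3 arrays (log2). The groups lay 1.09 apart at their nearest arrays, and the mean shift was 1.44, or 2.71-fold in favour of the alpha chain. IL3RA minus CSF2RB shifted by 1.05, from -2.60 ± 0.102 to -1.54 ± 0.185 (SD, n = 3 each), and its nearest arrays lay 0.736 apart. For this pair the groups no longer overlapped, although each chain alone did. CSF2RA minus CSF2RB shifted by 0.84, with 0.294 between the nearest arrays. The 3 shifts subtract the same CSF2RB values, whose difference of -0.57 did not pass alone, so they are not separate observations; CSF2RA itself contributed 0.27 of its 0.84. Each of the 3 shifts, and that of IL6R against IL6ST below, had p = 0.1 in an exact two-sided permutation test over arrays, the smallest that 3 against 3 can give, and 0.1 after Benjamini-Hochberg adjustment over the 4 pairs. With 1 array left out the shift ranged from 1.35 to 1.55 for IL5RA, 0.973 to 1.16 for IL3RA and 0.694 to 0.981 for CSF2RA.

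**Figure D3:**
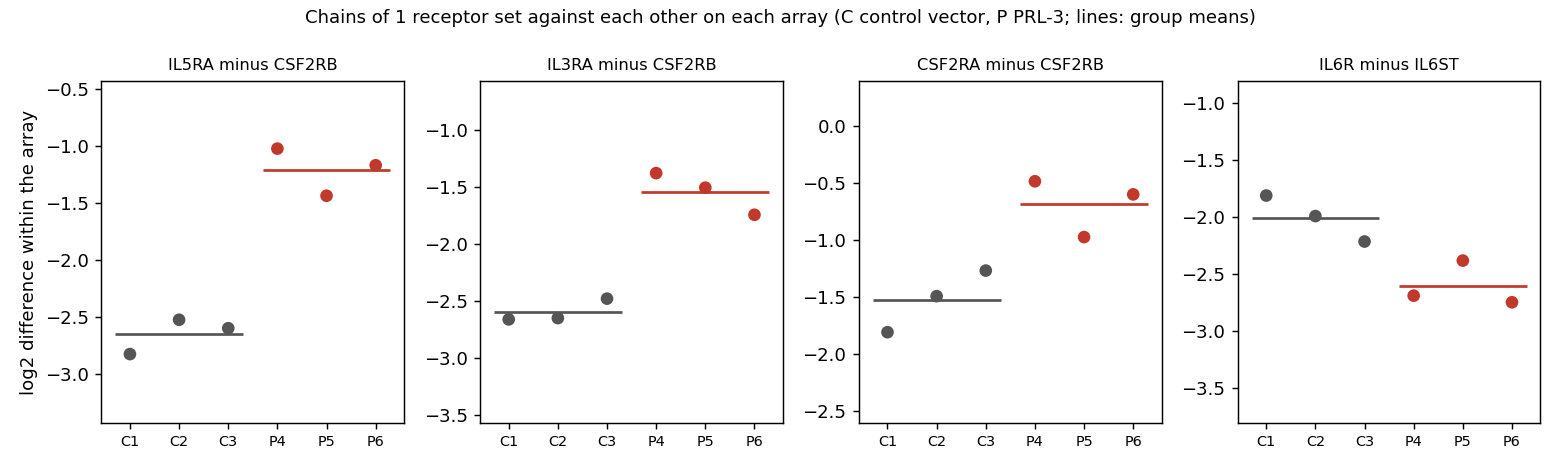
Log2 intensity of one chain minus that of its partner on each array (grey, control vector 1 to 3; red, PRL-3 4 to 6; lines, group means; every panel spans 3 log2 units). The 3 panels against CSF2RB share its values; the mean shift is 1.44 for IL5RA, and IL6R sinks against IL6ST by 0.60.

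IL6ST, the signal-transducing gp130 chain, read 436, 460 and 444 in control and 689, 620 and 747 in PRL-3 arrays. All PRL-3 arrays lay well above the tightly grouped controls. The rise of 0.61 ± 0.083 (log2, SE) was 1.53-fold, with an interval of 1.34 to 1.75 (adjusted p = 0.0043, limma). IL6R, its IL-6 binding partner, read 124, 116 and 95.7 in control and 107, 119 and 111 in PRL-3 arrays, with full overlap. Its difference was 0.013 ± 0.104 (log2, SE, adjusted p = 0.971, limma), and the interval on the fold ran from 0.854 to 1.19. IL6R minus IL6ST went from -2.01 ± 0.202 to -2.61 ± 0.197 (log2, SD, n = 3 each), a shift of -0.60, so the 2 chains changed unequally in these arrays.

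EPOR, the erythropoietin receptor, read 155, 133 and 121 in control and 135, 139 and 113 in PRL-3 arrays. The groups overlapped, and the difference of -0.081 ± 0.115 (log2, SE, adjusted p = 0.786, limma) had an interval on the fold of 0.788 to 1.13. IL4R read 119, 120 and 125 in control and 112, 113 and 115 in PRL-3 arrays. Every PRL-3 array was below every control, but the gap was small: -0.10 ± 0.063 (log2, SE, adjusted p = 0.448, limma), with an interval on the fold of 0.844 to 1.03. Neither chain passed in any of the alternatives tried.

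**Figure D4:**
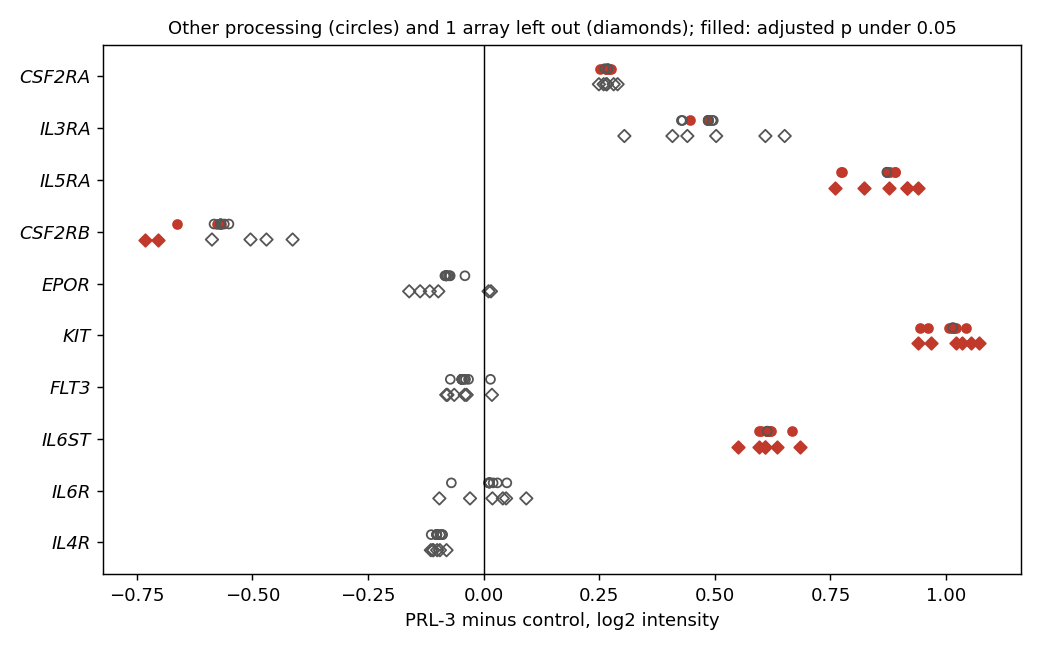
Difference per receptor chain (PRL-3 minus control, log2 intensity) under each other way of processing (circles) and with each array left out (diamonds); filled red marks adjusted p under 0.05. KIT stays between 0.94 and 1.07, IL5RA between 0.76 and 0.94 and IL6ST between 0.55 and 0.68, while CSF2RB spreads from -0.73 to -0.41.

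Among 37 other measured receptor chains of haematopoietic and related cytokines, 4 rose, 0 fell and 33 did not pass, and the median difference was 0.034 (log2). This 10.8% called compares with 7.69% of all genes. The largest was IL1RAP, the accessory chain of the IL-1 and IL-33 receptors, at 0.98 ± 0.1 (log2, SE, adjusted p = 0.00138, limma), which has also been found to associate with KIT in published work. LIFR, a partner of gp130 for LIF, rose by 0.79 ± 0.063 (adjusted p = 0.000472, limma) from a control level of 5.63 ± 0.039 to 6.42 ± 0.0085 (log2 intensity, SD, n = 3 each). Its brightness was low, at the 27.1 percentile. OSMR, the gp130 partner for oncostatin M, differed by 0.17 and IL11RA by 0.015, and neither passed; these 2 were named for their place beside IL6ST after their values were seen. IFNAR2, a chain of the type I interferon receptor, rose by 0.63 ± 0.086 (adjusted p = 0.00447, limma). KDR, a VEGF receptor, rose by 0.59 ± 0.108 (adjusted p = 0.0152, limma). Its call was lost without control 2, PRL-3 4 or PRL-3 6, at adjusted p of up to 0.0593. Those fits called fewer of all genes higher: 2.11%, 2.2% and 2.35%, against 4.58% with all 6 arrays. The same drop stands beside the other calls lost without these arrays.

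None of 15 measured ligands passed, among them IL3, IL5, EPO, KITLG, FLT3LG and IL6. Of all genes 7.69% passed, so 0 of 15 is near the background. In limma 1 of the 15 had an unadjusted p under 0.05, against 20.2% of all genes, and the median was -0.03 (log2). Their differences ran from -0.20 to 0.24, with LIF highest. In brightness 6 of the 15 lay below the 25 percentile of all genes, among them KITLG at 0.686, IL5 at 1.43, IL6 at 11.3 and IL3 at 24.3. EPO and FLT3LG were at 43.7 and 60.1. At the dim probe sets a missing difference may not bound the transcript.

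Of 41 measured genes that signal next to these receptors, 4 rose, 1 fell and 36 did not pass, 12.2% called against 7.69% of all genes, with a median of 0.018 (log2). FYN, a SRC family kinase, rose most, by 1.15 ± 0.088 (log2, SE, adjusted p = 0.000394, limma). CBL, a ubiquitin ligase that acts on activated KIT and other receptors, rose by 0.86 ± 0.135 (adjusted p = 0.00807, limma). SOCS2 and CISH, feedback inhibitors induced through STAT5, rose by 0.36 and 0.35 (adjusted p = 0.0315 and 0.0186, limma). GAB1, an adaptor that recruits PI3K and SHP2, fell by 0.28 (adjusted p = 0.0409, limma). The calls of SOCS2 and GAB1 did not hold when single arrays were left out: SOCS2 passed in 1 of 6 such fits, the one without control 3, and GAB1 in 0 of 6. Averaged over its probe sets, GAB1 differed by only -0.12 and did not pass. CISH passed in 4 of 6 and was lost without control 2 or PRL-3 6, at adjusted p of up to 0.087. The main kinases and transcription factors of the pathway did not pass: JAK1 differed by -0.17, JAK2 by 0.24, STAT3 by -0.22, STAT5A by -0.37 and STAT5B by -0.068. The STAT5A groups did not overlap, and it passed as lower in 4 of 18 alternatives, among them quantile normalization (-0.39, adjusted p = 0.0468) and the fit without control 3 (-0.47, adjusted p = 0.0331, limma). STAT3 and JAK2 passed in 2 of 18 each, JAK1 in 1 and STAT5B in 0. SOCS3, a feedback inhibitor that binds gp130, differed by 0.28 (adjusted p = 0.191, limma) and passed in 4 of 18.

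Among 26 known target genes of cytokine signalling, which share CISH, SOCS2 and SOCS3 with the list before and OSM and IL2RA with the other lists, 5 rose, 0 fell and 21 did not pass. The share called was 19.2% and the median 0.13 (log2), against 7.69% and -0.015 for all genes. PIM1, a survival kinase induced by STAT5, rose by 0.81 ± 0.157 (log2, SE, adjusted p = 0.0199, limma), and its call was lost without control 2 or PRL-3 4, at adjusted p of up to 0.0858. DUSP6, a phosphatase that dampens ERK, rose by 0.46 ± 0.068 (adjusted p = 0.00627, limma) and kept its call whichever array was left out. Its brightness was low, at the 22.7 percentile, so the 2 fits without dim genes did not include it. Over the other 16 alternatives its difference went down to 0.36. CD69, an early activation marker, rose by 0.46 ± 0.111 (adjusted p = 0.0433, limma) and lost its call whichever array was left out. MYC, BCL2L1 and MCL1, which cytokines sustain in dependent cells, differed by -0.35, -0.051 and -0.024 and did not pass; these 3 were named after their values were seen.

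Genes of receptor trafficking and turnover passed in 3 of 20, 1 higher and 2 lower, against 4.58% and 3.11% of all genes. STAM, which sorts internalised receptors, rose by 0.27 (adjusted p = 0.0462, limma), and lost its call whichever array was left out. TFR2, a transferrin receptor that associates with EPOR in erythroid progenitors, fell by 0.67 ± 0.149 (log2, SE, adjusted p = 0.0328, limma). BTRC, a ubiquitin ligase subunit that targets EPOR among other proteins, fell by 0.39 ± 0.074 (adjusted p = 0.0175, limma). Both of these calls were lost without control 1, control 2, PRL-3 4 or PRL-3 6, at adjusted p of up to 0.133 for TFR2 and 0.0859 for BTRC. In that order these fits called 1.64%, 0.969%, 1.08% and 1.24% of all genes lower, against 3.11% with all arrays.

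**Figure D5:**
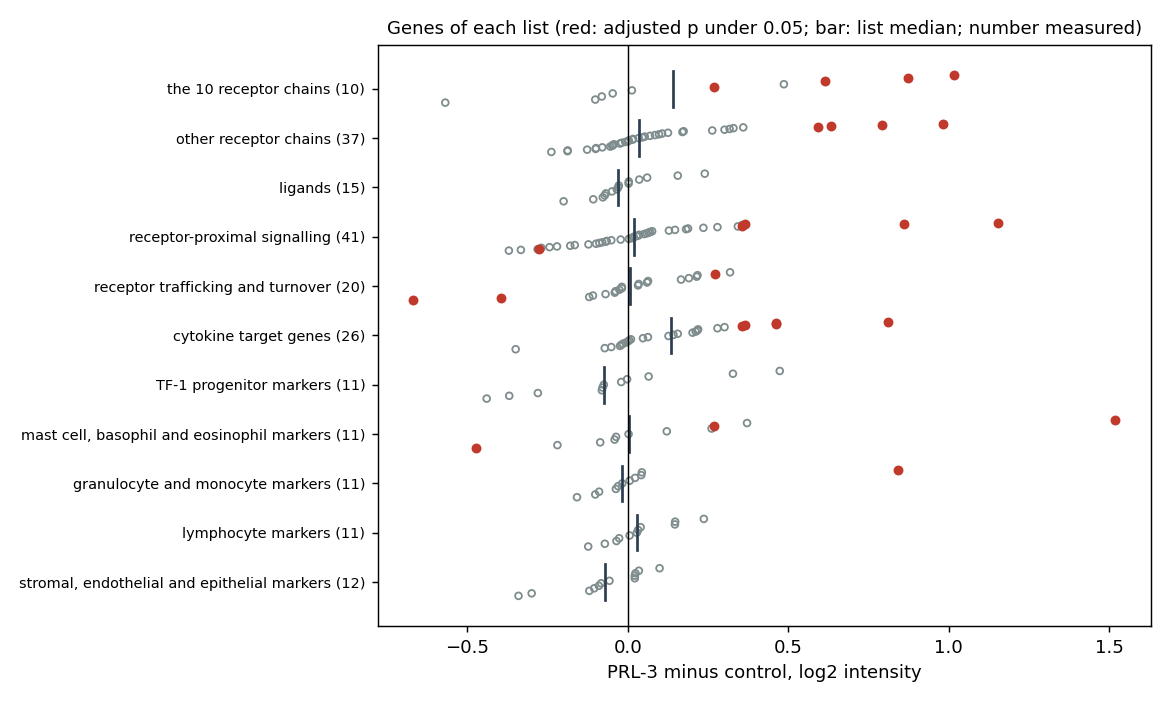
Difference of every measured gene in each list (PRL-3 minus control, log2 intensity); red marks adjusted p under 0.05, dark bars the list medians, and the number measured stands in brackets. The 10 receptor chains have a median of 0.14, cytokine targets 0.13, and ligands hold 0 red points.

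KIT and IL5RA also mark mast cells, basophils and eosinophils, so the other markers of these cells are given beside them. Of 11 measured, 2 rose, 1 fell and 8 did not pass, with a median of 0.0024 (log2), against 4.58% of all genes higher and 3.11% lower. PRG2, which encodes the major basic protein of eosinophils, rose by 1.52 ± 0.101 (log2, SE, adjusted p = 0.000209, limma). SIGLEC6 rose by 0.27 (adjusted p = 0.0476, limma), a call lost whichever array was left out. CPA3, a mast cell protease, fell by 0.47 ± 0.086 (adjusted p = 0.0154, limma), a call lost without control 2 or PRL-3 4. At an unadjusted p under 0.05 in limma were 5 of the 11, against 20.2% of all genes. Beside PRG2, SIGLEC6 and CPA3 these were HDC (0.37) and TPSG1 (-0.22), which did not pass after adjustment. EPX and CLC, also among these 11 markers, were at the 29.1 and 12 percentile of brightness and differed by -0.037 and 0.0024. HDC, TPSG1, EPX and CLC were named after their values were seen. The summed intensity of the 11 was 1036 to 1073 in control and 1244 to 1269 in PRL-3 arrays. PRG2 carried this difference: without it the other 10 summed to 953 to 973 in control and 949 to 1005 in PRL-3 arrays. Among these 10, HDC and SIGLEC6 were higher and CPA3 and TPSG1 lower, which a sum does not show. The part of these markers in the rise of KIT and IL5RA was not tested, and more cells with a receptor cannot be told apart from more RNA per cell. Of the 11 TF-1 progenitor markers 0 passed in limma. An unadjusted p under 0.05 in limma was reached by 5 of the 11, a larger share than the 20.2% of all genes. These were CD34 (-0.44), NFE2 (-0.37) and TAL1 (-0.28) lower, and GATA2 (0.47) and PTPRC (0.33) higher, all named after their values were seen. CSTA, an inhibitor of cysteine proteases, was the only one of 11 granulocyte and monocyte markers to pass, at 0.84 ± 0.144 (adjusted p = 0.0113, limma), a call lost without control 2 or PRL-3 6. Of lymphocyte markers 0 of 11 passed, with 0 at an unadjusted p under 0.05 in limma, and of stromal, endothelial and epithelial markers 0 of 12, with 2.

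The genes next to the chains that rose were read in the order of the RefSeq table, 3 tested genes on either side. Of these 24 neighbours, which include IL3RA, 4 rose and 0 fell, against 4.58% and 3.11% of all genes. KIT stands between PDGFRA and KDR, relatives that encode receptor tyrosine kinases; PDGFRA differed by 0.36 (adjusted p = 0.0562, limma) and KDR rose as above, while TMEM165 and CHIC2 differed by 0.026 and 0.064. IL6ST stands beside ANKRD55, which rose by 0.70 ± 0.091 (log2, SE, adjusted p = 0.00366, limma), and MAP3K1, which rose by 0.33 ± 0.077 (adjusted p = 0.0404, limma) but lost its call whichever array was left out. IL31RA, a receptor chain on the other side of IL6ST, differed by 0.023 at a dim probe set (7.42 percentile). Some neighbours had every PRL-3 array below every control without passing, as 12.2% of all genes had. These were SLC38A9 (-0.22), SETD9 (-0.19) and the dim DDX4 (-0.11) near IL6ST, and CLOCK (-0.23) near KIT. CSF2RA lies between CRLF2 and IL3RA, and CRLF2, the chain for thymic stromal lymphopoietin, differed by 0.32 without passing (adjusted p = 0.202, limma). ASMTL, also near it, rose by 0.69 ± 0.084 (adjusted p = 0.00281, limma). Around IL5RA 0 of 6 passed, with differences from -0.068 for CRBN to 0.023 for CHL1. Of these, CNTN4, LRRN1, CNTN6 and CHL1 were dim, at the 4.65, 5.42, 5.74 and 10.4 percentile, and may not show a change. TRNT1 and CRBN were at the 76.3 and 96.7 percentile.

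Genes were also ranked by how closely their 6 log2 values, centred on their own mean, followed those of each chain that rose. For KIT the nearest were CPED1, POF1B and WIPI1, at root mean square distances of 0.0623, 0.0647 and 0.0831 (log2, 6 arrays), and 9 genes lay within 0.1. For IL5RA they were CBL, SLAIN1 and GSTO1, at 0.0609, 0.0617 and 0.064, with 17 genes within 0.1. For IL6ST they were FGD6, SUGT1 and RECQL, at 0.0217, 0.0278 and 0.0301, and for CSF2RA UEVLD, ACOT9 and STX11, at 0.0143, 0.0149 and 0.0168. A small difference leaves many genes close by: 100 lay within 0.1 of IL6ST and 1248 within 0.1 of CSF2RA. These distances describe 6 arrays in 2 groups and have no test.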

How the data were processed

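Total RNA was measured on a whole-transcript human array, in 3 control and 3 PRL-3 arrays; per the labels' protocols it was labelled as biotinylated cDNA with Nugen kits. The deposited table gave 28869 probe sets with a linear intensity on each array. The steps by which the authors summarised and normalized these intensities are not given in the sources used here; medians lay close, so no further normalization was applied, and a change common to most genes could not be seen. The table gave no detection call.

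The log2 of each intensity was taken. Of the probe sets, 19310 had 1 gene symbol in the platform annotation, 1752 several and 7807 none here; 19279 matched RefSeq (GRCh38.p14) by Entrez identifier. The first gave 18377 genes. The comparison used lmFit and eBayes of limma 3.58.1 (R 4.3.3), two-sided, with Benjamini-Hochberg adjustment over all genes and a threshold of 0.05. Errors are moderated SE for differences and SD over 3 arrays for levels. The number of arrays limits precision.

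The receptor chains and the lists were chosen with earlier results of these data known. Named were the 10 chains, PTP4A3, up to 4 of each list with the largest called differences, JAK1, JAK2, STAT3, STAT5A, STAT5B, CISH, SOCS2 and SOCS3. Called or adjoining neighbours and the 3 genes nearest to each chain that rose were named too. Some, not all, of the other neighbours within 3 places were named as well. Alternatives were quantile normalization, a shift to 1 median, an intensity trend (robust), array weights, removal of dim genes at 2 levels, averaging or testing all probe sets, an offset of 16, an unequal-variance test and leaving out each array; 2 fits were added after seeing the data. Figures were drawn with matplotlib.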

Additional observations from a re-analysis of the deposited data

Results flagged for a closer look

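The probe set annotated to CSF2RA that did not stand for the gene also differed between the groups. It rose by 0.27 on the log2 scale with PRL-3 (adjusted p = 0.0469 over 28869 probe sets, limma). It followed the probe set used to within 0.0031 on every array, so it is not a separate measurement.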

How the results depend on the processing

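KIT, IL5RA and IL6ST passed in 17 of 18 alternatives each, all but the unequal-variance test. There 0 of the 10 chains were called higher, and 7 of 18377 genes (0.0381%) were. In that test 5 chains had an unadjusted p under 0.05. That count takes both directions, and the same count over all genes was not taken. The 5 therefore has no background share beside it and is not a result about the chains. CSF2RA passed in 9 of 18: it was lost with each array left out, with an intensity trend and robust variances (adjusted p = 0.101), in the unequal-variance test and without control 1 and PRL-3 5. The count of chains higher was otherwise 3 to 5 in the alternatives run. With 1 array left out it was 3, in fits that called 2.11% to 4.31% of all genes higher. The other alternatives, apart from the unequal-variance test, called 2.87% to 11.5% of all genes higher. The count lower, 0, became 1 (CSF2RB) with array weights, without control 1 and PRL-3 5 together and with the main within-group direction as covariate. In that order these fits called 12.5%, 2.23% and 9.82% of all genes lower. With 1 array left out the count lower ranged from 0 to 1, against 0.969% to 4.06% of all genes. IL3RA passed with array weights (0.45, adjusted p = 0.0227) and that covariate (adjusted p = 0.00448, limma); both are tuned on the arrays' own spread, and they called 11.5% and 10.8% of all genes higher. Signs turned only near 0: FLT3 was 0.015 with array weights and 0.018 without control 3; IL6R was -0.070 with array weights, -0.096 without control 3 and -0.029 without PRL-3 5; EPOR was 0.016 without control 1 and 0.011 without PRL-3 6; STAT5B was 0.064 without control 1 and 0.02 without PRL-3 4. With 1 array left out these ranged from -0.081 to 0.018 (FLT3), -0.096 to 0.092 (IL6R), -0.161 to 0.016 (EPOR) and -0.202 to 0.064 (STAT5B). The cause of these moves was not tested. PTP4A3 stayed past the threshold throughout, at 2.80 to 2.90. Of the 10 chains only FLT3 was too dim for the 2 filtered fits. No paired analysis was possible because the groups share no replicate number.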
